A study of Homo sapiens with 91 samples.

Results

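KB-0742, an inhibitor of the kinase CDK9, was compared with DMSO vehicle after 2 h of treatment in MOLT4, a human T-cell acute lymphoblastic leukemia line. The comparison rests on 8 libraries, 4 with KB-0742 and 4 with vehicle, of the 91 libraries in the study. They were taken by their labels (MOLT4, inhibitor or vehicle, 2 h) from the count table of that line. The whole study also covered a pancreatic and a rhabdomyosarcoma line, the CDK9 degrader KI-CDK9d-32 and later times, and MOLT4 alone had 35 libraries in 9 groups of compound and time. Cells were seeded in small numbers, treated and lysed at 2 h, and both groups here were unmodified MOLT4 cells that differed, per the labels, only in the compound. The labels give no dose of either compound. They call the samples biological replicates without saying whether they came from separate cultures, so the p-values reflect only how these samples vary, which may be technical.

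CDK9 pairs with a cyclin T to form P-TEFb, the kinase that lets RNA polymerase II leave its pause shortly after the start of a gene and go on into productive elongation. Much of P-TEFb is held inactive by the 7SK small nuclear ribonucleoprotein, in which HEXIM1 or HEXIM2 binds 7SK RNA and silences the kinase, and which is kept together by LARP7 and the capping enzyme MEPCE. Leukemia cells are of interest for CDK9 inhibitors because transcripts with short lives, such as those of MYC and MCL1, need continued transcription.

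The libraries were of even depth, with gene counts between 2582359 and 3240753. Fewer genes had at least 1 count with KB-0742, 14933 ± 59.2 (SD, n = 4) against 16293 ± 157, with no overlap between the groups. The 100 most counted genes of a library held 48.9% ± 0.611 of its gene counts with KB-0742 and 40.7% ± 0.364 with vehicle, mitochondrial genes 13.7% ± 0.560 and 10.6% ± 0.463, and ribosomal protein genes 24.5% ± 0.144 and 20.7% ± 0.109. Each of these differences had an exact two-sided permutation p of 0.0286, the smallest that 4 against 4 libraries can give, and 0.04 after adjustment over 7 measures. The share of reads from the spike-in RNA added to each lysate was 18.1% ± 2.78 with KB-0742 and 15.1% ± 3.22 with vehicle. These ranges overlapped (exact p = 0.257, adjusted 0.3), so this test detected no change in RNA per lysate in these 8 libraries. The test did not pair libraries by replicate number. T-cell surface genes summed to 9374 to 9896 CPM (a gene's counts scaled to the library total, here per 1e6 gene counts after TMM) with KB-0742 and 9392 to 9813 with vehicle. T-leukemia transcription factors summed to 1820 to 2055 and 2261 to 2510 CPM, while 15 epithelial markers summed to at most 6.53 CPM and 15 myogenic markers to at most 5.83 CPM, with 11 and 6 of them at 0 in all 8 libraries. IL7R of the T-cell surface list and the T-leukemia factors LMO1, LYL1 and MEF2C were also at 0 in all 8 libraries.

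**Figure D1:**
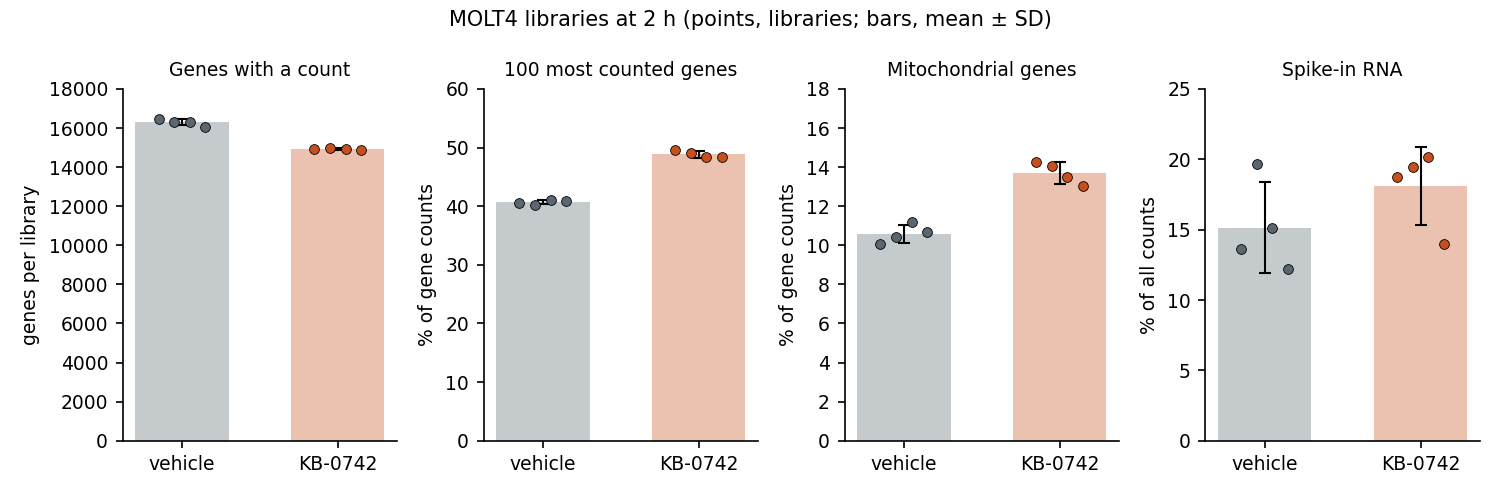
Genes with at least 1 count, the share of gene counts in the 100 most counted genes and in mitochondrial genes, and the share of all counts from spike-in RNA, in the 4 vehicle and 4 KB-0742 libraries at 2 h (points, libraries; bars, mean ± SD). The first 3 measures do not overlap between the groups, while the spike-in shares do, at 12.2% to 19.6% with vehicle and 14.01% to 20.1% with KB-0742.

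After 2 h, 3041 of the 11664 genes tested differed from vehicle, 1535 higher and 1506 lower (26.1% of the genes tested, 13.2% higher and 12.9% lower). A gene was called when edgeR's quasi-likelihood test gave a Benjamini-Hochberg adjusted p under 0.05, with libraries scaled by TMM (the trimmed mean of M values), and changes are given as log2 fold changes ± standard error on that scale. The groups did not overlap in 30.7% of the genes tested, 15.4% higher and 15.3% lower. The called genes that were lower had a median of -1.19, against 0.61 for those that were higher. In the fifth of genes with the highest mean level over the MOLT4 libraries, 1128 were called higher and 191 lower. Smaller changes can be called at higher levels, so the 2 medians are not a like comparison of effect size. TMM values are relative to the bulk of the genes, and the choice of reference sets the balance. The median over all genes tested was -0.05 under TMM, -0.53 when libraries were scaled by their total gene count and -0.86 when they were scaled by the spike-in counts. With spike-in scaling 14 genes were called higher (0.12% of the genes tested) and 2282 lower (19.6%), together 19.7%, and with total-count scaling 261 (2.24%) and 3982 (34.1%), together 36.4%. Of the genes called lower under TMM, 1505 were also called lower under spike-in scaling, and of those called higher, 14 were also called higher. With 1 exception, a gene called lower was therefore also lower per unit of spike-in, whereas a call of higher means higher against the rest of that library. Bulk libraries cannot tell fewer cells apart from less RNA per cell.

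**Figure D2:**
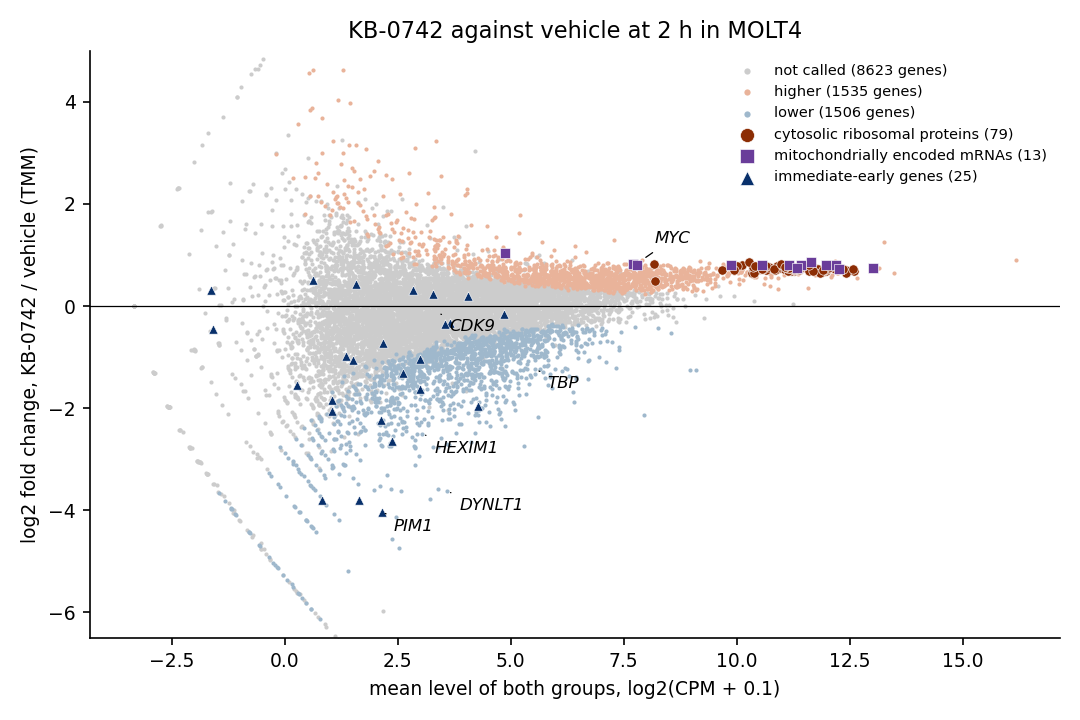
Log2 fold change of each gene (KB-0742 over vehicle, TMM scaling) against its mean level over both groups, as log2 of CPM plus 0.1, for the 11664 genes tested, with 3 gene lists marked and 17 genes outside the plotted range. Under this scaling the 79 cytosolic ribosomal protein genes and 13 mitochondrial mRNAs lie above 0, and both medians lie just below 0 under spike-in scaling, while 19 of the 25 immediate-early genes lie below 0.

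Transcripts of HEXIM1 and MEPCE, which hold P-TEFb inactive with 7SK RNA, fell under TMM, total-count and spike-in scaling, and calls for the other members of this group were less stable. Stability was checked by leaving out each of the 8 libraries in turn, which gives 8 leave-outs for each gene. Over all genes tested, 1057 of the 3041 calls at 2 h were lost in at least 1 leave-out. HEXIM1, the inhibitor of P-TEFb, was at 12.8, 12.2, 15.8 and 14.2 CPM in the 4 vehicle libraries and 2.78, 2.9, 2.31 and 1.53 CPM in the 4 KB-0742 libraries. The groups lay far apart, and HEXIM1 fell by 2.51 on the log2 scale (± 0.40, edgeR adjusted p = 2.28e-06). MEPCE, which caps 7SK RNA, went from 25.8, 25.7, 21.2 and 23.7 to 4.76, 6.15, 8.59 and 6.89 CPM, also without overlap (log2 fold change -1.85 ± 0.39, adjusted p = 0.000256). HEXIM2, the paralog of HEXIM1, was at 3.72, 3.87, 8.54 and 4.45 CPM with vehicle and 1.59, 1.09, 0.33 and 1.15 CPM with KB-0742. Its groups did not overlap either, but the call (-2.29 ± 0.83, adjusted p = 0.0361) was lost in 4 of the 8 leave-outs (highest adjusted p = 0.118, without vehicle replicate 3).

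The 150 bases before the RefSeq start of HEXIM1 (chr17:45148325-45148474, plus strand, GRCh38.p14) are shown because it was the P-TEFb regulator that fell most, and capitals mark matches on either strand to the TATA box TATAAA, the element CCAAT and the GC box GGGCGG:
HEXIM1: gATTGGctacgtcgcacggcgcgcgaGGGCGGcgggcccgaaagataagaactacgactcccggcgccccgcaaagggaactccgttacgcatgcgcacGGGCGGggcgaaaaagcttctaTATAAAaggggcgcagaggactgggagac
The TATAAA match begins 29 bases before the start. In the 300-base windows around the starts of 8552 tested genes (250 bases before to 50 after), 5.09% held TATAAA on either strand, 38.6% held CCAAT and 70.4% held GGGCGG.

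The kinase subunit CDK9 itself was at 18.1, 7.74, 7.76 and 9.2 CPM with vehicle and 10.7, 9.41, 10.6 and 8.42 CPM with KB-0742. These ranges overlap, 1 vehicle library was well above the others, and CDK9 was not called (-0.13 ± 0.30, adjusted p = 0.805). CCNT1, the cyclin T1 partner of CDK9, was at 12.5, 10.8, 17.1 and 12.5 CPM with vehicle and 19.5, 27.5, 20.8 and 21.4 CPM with KB-0742. All 4 treated libraries were above all vehicle libraries (0.75 ± 0.24, adjusted p = 0.0171), although the call was lost in 2 of the 8 leave-outs (highest adjusted p = 0.0755, without KB-0742 replicate 2) and the value was -0.063 under spike-in scaling. CCNT2, the other cyclin T, had overlapping groups. Its call of higher (0.83 ± 0.30, adjusted p = 0.0359) was lost in 6 of the 8 leave-outs (highest adjusted p = 0.139, without KB-0742 replicate 3), with the 8 libraries fitted alone and with no filter on low counts, and the value was -0.012 under spike-in scaling. LARP7, which stabilizes 7SK, did not pass the test (0.095 ± 0.23), nor did the phosphatase PPM1G (0.21 ± 0.11). SRSF2, a splicing factor also known to bind 7SK complexes, was called higher at 0.43 ± 0.12 under TMM, which turned to -0.40 under spike-in and -0.057 under total-count scaling, and the call was lost without vehicle replicate 2 (adjusted p = 0.0564). In all, 3 of the 10 members of this group were called higher and 3 lower (30% and 30%, against 13.2% and 12.9% of all genes tested). Their median was 0.15 under TMM and -0.63 under spike-in scaling.

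Members of the elongation complexes that work with P-TEFb did not move as a block. In the super elongation complex, which carries P-TEFb to paused polymerase, 1 of 8 members tested was called higher and 2 lower. These are 12.5% and 25%, against 13.2% and 12.9% of all genes tested. The scaffold AFF4 was called higher (0.66 ± 0.23), and AFF1 (-0.57 ± 0.20) and EAF2 (-1.07 ± 0.37) lower, and these calls were lost in 4, 3 and 5 of the 8 leave-outs (highest adjusted p 0.112, 0.192 and 0.0811, without KB-0742 replicate 1, vehicle replicate 1 and KB-0742 replicate 2). The value of AFF4 was -0.13 under spike-in scaling. Among 15 members of NELF and DSIF, which hold polymerase at the pause, and of the PAF1 complex, SPT6 and other elongation factors, 5 were called higher and 2 lower (33.3% and 13.3%). LEO1, a PAF1 subunit, was at 22.3, 35.7, 29.8 and 27.9 CPM with vehicle and 5.56, 13.03, 6.94 and 7.27 CPM with KB-0742. The highest treated library was below the lowest vehicle library, and LEO1 fell by 1.81 (± 0.32, adjusted p = 1.68e-05). The NELF subunits split, since NELFA was lower (-0.84 ± 0.18) while NELFCD (0.32 ± 0.10) and NELFE (0.40 ± 0.10) were higher under TMM, and both of these turned to -0.49 and -0.40 under spike-in scaling and to -0.16 and -0.083 under total-count scaling. The DSIF subunit SUPT4H1 was higher at 0.52 ± 0.12 under TMM (-0.27 under spike-in scaling). The calls of RTF1, a factor of the PAF1 complex (0.47 ± 0.16), and of TCEA1, which restarts stalled polymerase (0.47 ± 0.15), were lost in 5 and 1 of the 8 leave-outs (highest adjusted p = 0.078 and 0.0518, without KB-0742 replicate 3 and vehicle replicate 1), and both values were below 0 under spike-in and total-count scaling.

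Among 13 other transcription-linked kinases and cyclins, 1 was called higher and 2 lower (7.69% and 15.4%), near the 13.2% and 12.9% of all genes tested. CDK7, the TFIIH kinase that also activates CDK9, was at 15.2, 16.6, 19.2 and 17.8 CPM with vehicle and 7.94, 5.79, 6.94 and 8.42 CPM with KB-0742. Every treated library was below every vehicle library (-1.24 ± 0.28, adjusted p = 0.000689). Its partner MNAT1 was also called lower (-0.68 ± 0.24), a call lost in 5 of the 8 leave-outs (highest adjusted p = 0.0914, without KB-0742 replicate 2). CCNL2, a cyclin L linked to splicing kinases, was at 44.4, 43.1, 42.97 and 26.7 CPM with vehicle and 85.4, 98.5, 79.3 and 73.9 CPM with KB-0742. It rose by 1.10 ± 0.16 (adjusted p = 2.58e-07) without overlap, whereas its paralog CCNL1 did not pass the test at 2 h (0.22 ± 0.18). Of the 12 subunits of RNA polymerase II tested, 7 were called higher and none lower under TMM (58.3% and 0%), with a median of 0.40 that turned to -0.41 under spike-in scaling and -0.08 under total-count scaling. POLR2F changed by 0.60 ± 0.096, with -0.22 under spike-in scaling, and POLR2A, which encodes the largest subunit, was not among them (-0.24 ± 0.14, adjusted p = 0.232).

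**Figure D3:**
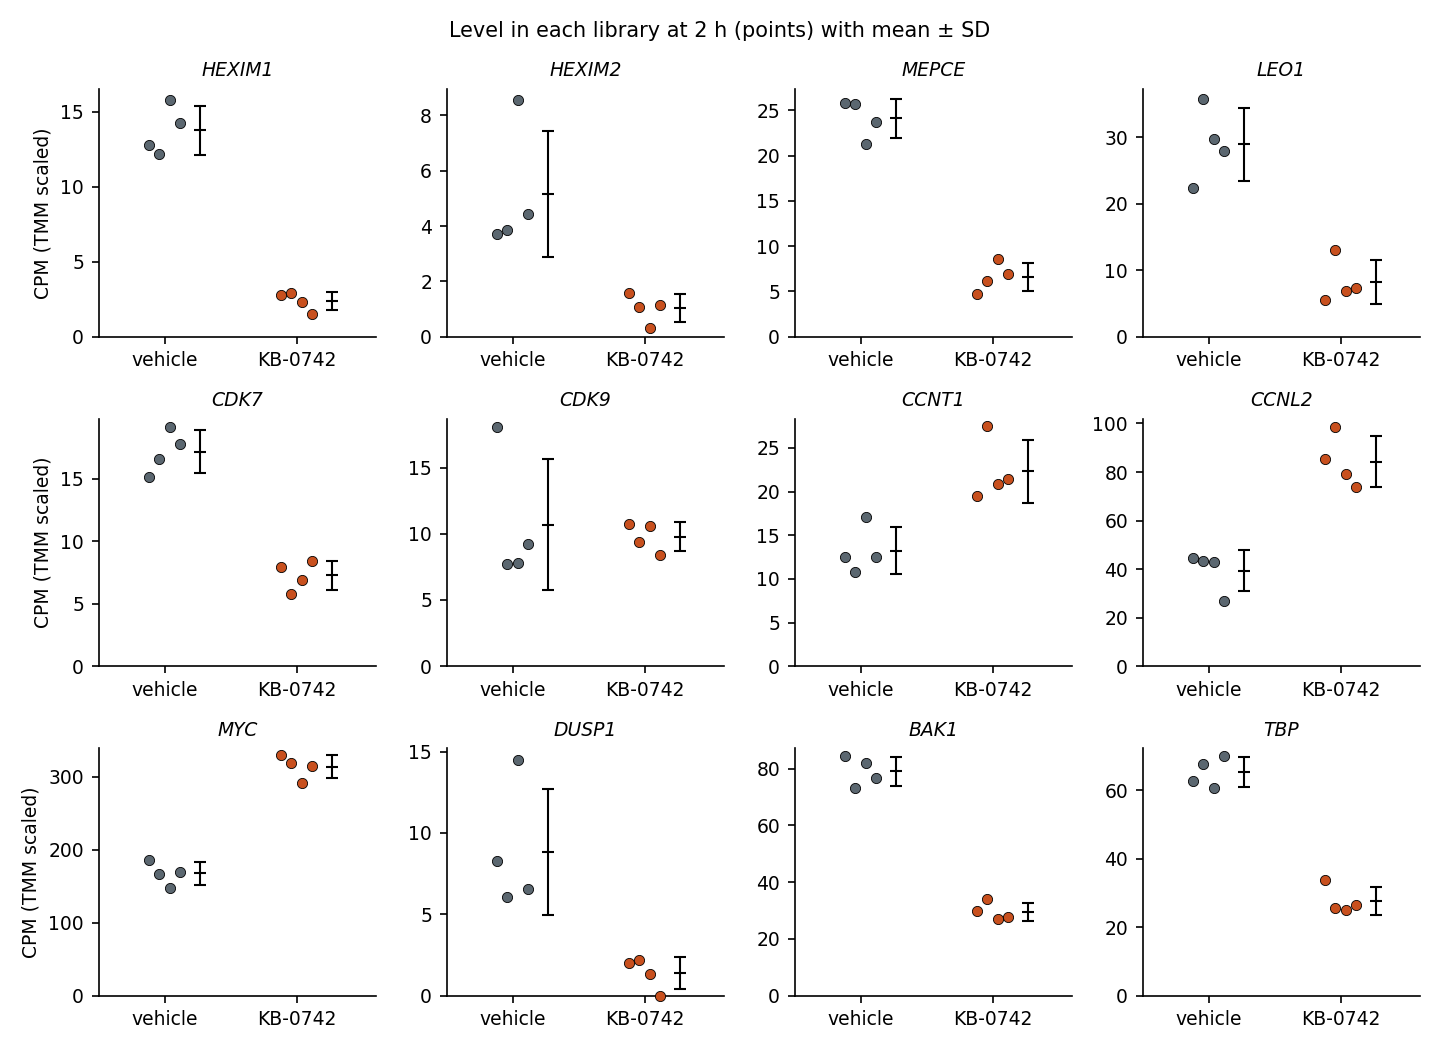
CPM of 12 genes in each of the 4 vehicle and 4 KB-0742 libraries at 2 h (points), with the mean ± SD beside them, on axes that start at 0. HEXIM1, HEXIM2, MEPCE, LEO1, CDK7, DUSP1, BAK1 and TBP have every treated library below every vehicle library, CCNT1, CCNL2 and MYC have every treated library above, and CDK9 overlaps. The value of CCNT1 falls just below 0 under spike-in scaling.

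MYC rose relative to the other genes. This transcription factor gene, a driver of many T-cell leukemias, was at 186, 167, 148 and 169.7 CPM with vehicle and 330.3, 319.6, 292 and 315 CPM with KB-0742. The groups were well apart, and the change was 0.91 ± 0.14 (adjusted p = 9.73e-07), 0.42 under total-count scaling and 0.10, not called, under spike-in scaling. MCL1, an anti-apoptotic gene whose transcript is short-lived, was at 4.79, 8.02, 5.44 and 7.12 CPM with vehicle and 6.75, 9.05, 10.2 and 5.36 CPM with KB-0742, with overlapping ranges and no call (0.31 ± 0.31, adjusted p = 0.499). MYCN was too low in MOLT4 to be tested. Of 10 members of the MYC-MAX network tested, 1 was called higher (MYC) and 3 lower, which is 10% and 30%. The lower members that kept their calls were MXD3 (-1.14 ± 0.19), a MAX partner that opposes MYC, and MLX (-0.65 ± 0.14), a MAX-like factor. Genes of ribosome assembly in the nucleolus, many of them known MYC targets, had 7 of 47 called higher and 10 lower (14.9% and 21.3%, against 13.2% and 12.9% of all genes tested) and a median of -0.038 (spike-in scaling -0.86).

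Immediate-early genes, whose transcripts are made quickly on stimulation and decay within minutes to hours, had the lowest median change of the 36 lists with tested members. Of the 25 tested of 42, edgeR called none higher and 9 lower (at an unadjusted p under 0.05 none higher and 11 lower, and by DESeq2 none and 9), with a median of -1.03 against -0.05 for all genes tested and -1.85 under spike-in scaling. The called shares were 0% higher and 36% lower, against 13.2% and 12.9% of all genes tested. The filter on low counts ran over all 9 groups. Members this low with KB-0742 may have passed it only through vehicle groups, which favors values below 0 and a low rank of this list. PIM1, a survival kinase gene, was at 12.8, 5.81, 4.66 and 9.5 CPM with vehicle and 0, 1.09, 0.33 and 0.383 CPM with KB-0742. DUSP1, a phosphatase that switches off MAP kinases, was at 8.25, 6.08, 14.5 and 6.53 CPM with vehicle and 1.98, 2.17, 1.32 and 0 CPM with KB-0742. Neither gene's groups overlapped, and the changes were -4.03 ± 0.79 (adjusted p = 9.05e-05) and -2.65 ± 0.63 (adjusted p = 0.00099). RGS2 and RGS16, which shut off G-protein signals, changed by -3.79 ± 0.92 and -2.24 ± 0.63. GADD45B, a stress sensor, had 46 counts over the 4 vehicle libraries and 2 over the 4 KB-0742 libraries, a ratio of 0.0582 with a 95% counting interval of 0.00684 to 0.222. The other members called lower were IER2 (-1.96), ZFP36L1 (-1.63), JUNB (-1.31) and ZFP36 (-1.03), and JUNB and ZFP36 lost their calls in 3 and 5 of the 8 leave-outs (these 4 genes and the next 3 were named after their values were seen). FOS (-0.46), EGR1 (0.52) and FOSB (0.32) did not pass the test, and JUN, KLF2, KLF4 and DUSP6 were among the 17 members too low to test. With KB-0742, FOS was at 0.794 CPM in replicate 1 and FOSB at 0.991 CPM in replicate 3, with a median of 0 in the others. The values of FOS and FOSB therefore rest on very few reads and do not show that they were unmoved.

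Of the 21 tested immediate-early genes with a RefSeq promoter window, 6 held TATAAA (28.6%), against 5.09% of all tested genes with a window. These were DUSP1, GADD45B and JUNB, called lower, and FOS, FOSB and ID1, not called. The 150 bases before the start are shown for DUSP1 (chr5:172771196-172771345, minus strand), GADD45B (chr19:2475977-2476126, plus strand) and PIM1 (chr6:37170002-37170151, plus strand; all GRCh38.p14), since they fell strongly and differ in their start elements, with the same 3 elements on either strand in capitals, and also the E-box CACGTG and the cyclic AMP response element TGACGTCA:
DUSP1: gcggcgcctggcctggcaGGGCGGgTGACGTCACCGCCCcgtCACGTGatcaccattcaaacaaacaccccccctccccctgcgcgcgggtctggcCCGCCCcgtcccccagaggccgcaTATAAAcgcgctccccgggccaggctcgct
GADD45B: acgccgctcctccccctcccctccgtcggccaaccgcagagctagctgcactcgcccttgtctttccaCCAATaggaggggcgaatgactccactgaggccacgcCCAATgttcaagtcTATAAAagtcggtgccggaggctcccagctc
PIM1: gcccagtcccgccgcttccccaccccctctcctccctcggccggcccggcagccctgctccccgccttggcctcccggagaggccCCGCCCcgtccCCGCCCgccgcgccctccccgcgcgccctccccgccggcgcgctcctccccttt
TATAAA begins 30 bases before the start of DUSP1 and 31 before that of GADD45B, and the PIM1 stretch holds no TATAAA but 2 reverse matches to GGGCGG. DUSP1 alone of the 4 promoters shown holds the palindromes TGACGTCA and CACGTG in this stretch. A fall at 2 h was thus measured for genes with and without TATAAA in this window.

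Stress and cell-death genes were mostly lower or unmoved. Of 21 integrated stress response genes, the program that ATF4 drives when translation is limited, 2 were called higher and 8 lower (median -0.38, spike-in scaling -1.16). These are 9.52% and 38.1%, against 13.2% and 12.9% of all genes tested. PPP1R15A, which reverses that response, was at 15.96, 17.1, 16.6 and 13.9 CPM with vehicle and 9.13, 5.07, 2.64 and 1.15 CPM with KB-0742, and HERPUD1, a gene of endoplasmic reticulum quality control, at 65.2, 71.1, 64.97 and 80.7 and 30.97, 31.5, 29.4 and 49.4 CPM. Both fell without overlap (-1.83 ± 0.45 and -0.998 ± 0.20). SESN2, a regulator of growth signaling under stress, changed by -2.63 ± 0.74, and the cystine transporter gene SLC7A11 had a count ratio of 0.0743 (95% counting interval 0.00867 to 0.289). DDIT3, which encodes the stress factor CHOP, was called lower (-0.91 ± 0.30) and lost the call in 2 of the 8 leave-outs (highest adjusted p = 0.0666, without KB-0742 replicate 1).

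Of 14 pro-apoptotic genes edgeR called none higher and 4 lower (unadjusted none and 6, DESeq2 none and 4; median -0.76, spike-in scaling -1.54). BAK1, which opens the outer mitochondrial membrane, went from 84.3, 73.3, 81.8 and 76.6 CPM to 29.8, 34.03, 27.1 and 27.6 CPM, a fall of 1.42 (± 0.17) with no overlap. CASP8, the initiator caspase of death receptors, fell by 2.04 (± 0.43). Of 6 anti-apoptotic genes tested edgeR called none in either direction (2 lower at an unadjusted p under 0.05, and 1 lower by DESeq2), and their median was 0.10 (-0.67 under spike-in scaling). Of 20 p53 targets edgeR called none higher and 4 lower, which is 20% lower, against 12.9% of all genes tested (unadjusted none and 6, DESeq2 none and 4). The 4 included the nuclease gene AEN (-1.33 ± 0.15), the metabolic regulator TIGAR (-1.72 ± 0.35) and the DNA polymerase gene POLH (-0.996 ± 0.21). Of 11 NF-kB factors and feedback genes 1 was called higher (9.09%), IRF1 (0.51 ± 0.16 under TMM, -0.33 under spike-in scaling), and 2 lower (18.2%), the subunit genes REL (-0.80) and RELA (-0.73). Each of these 3 calls could be lost on leaving out 1 library, with a highest adjusted p of 0.083, 0.0892 and 0.0776, all without KB-0742 replicate 3. The heat shock list split, with HSPA1B (-1.59 ± 0.38, a near copy of HSPA1A, so its counts are uncertain) and the HSP40 gene DNAJB1 (-1.09 ± 0.14) lower, and HSP90AA1 higher at 0.56 ± 0.11 under TMM but -0.24 under spike-in scaling. In that list 5 of 22 were called higher and 4 lower (22.7% and 18.2%, against 13.2% and 12.9% of all genes tested).

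Genes of RNA processing moved in both directions at once. Core spliceosome genes were more often higher, 21 of 48 against 2 lower, with a median of 0.29 under TMM that turned to -0.52 under spike-in scaling and -0.19 under total-count scaling. These are 43.8% and 4.17%, against 13.2% and 12.9% of all genes tested. The list had a median of 110 CPM with vehicle. In the fifth of genes with the highest mean level, 48.3% were called higher and 8.19% lower, at a median of 0.34, so the list was near genes of high level. SNRPE, a protein of the Sm ring of small nuclear ribonucleoproteins, rose from 219, 313, 303 and 246 to 412, 490.1, 478 and 473 CPM (0.78 ± 0.11). The 2 lower members were LUC7L3, a factor linked to the U1 particle, and PNISR, an SR-related protein. LUC7L3 was at 121, 150.4, 117 and 113 CPM with vehicle and 48.4, 46.3, 53.8 and 42.9 CPM with KB-0742, and PNISR at 36.98, 44.8, 34.4 and 31.8 and 7.94, 15.6, 10.6 and 9.95 CPM, both with wide gaps between the groups (-1.39 ± 0.13, adjusted p = 1.91e-11, and -1.74 ± 0.20, adjusted p = 1.73e-09).

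SR proteins, which choose splice sites, split within the family. Of 20 genes of the list 5 were called higher and 3 lower under TMM (25% and 15%, against 13.2% and 12.9% of all genes tested). SRSF3 was higher at 0.70 ± 0.089 (-0.093 under spike-in scaling), and SRSF5 (-1.17 ± 0.14) and SRSF6 (-0.60 ± 0.16) were lower under TMM, total-count and spike-in scaling. The kinase genes CLK2 (0.997 ± 0.27) and DYRK1A (1.12 ± 0.26), whose products phosphorylate SR proteins, were higher. Among 31 genes of the Integrator and of mRNA 3' end formation 3 were called higher and 7 lower (9.68% and 22.6%). PCF11, a factor of transcription termination, was at 9.58, 2.77, 12.2 and 5.93 CPM with vehicle and 1.59, 0.724, 1.98 and 1.53 CPM with KB-0742. It fell by 2.35 (± 0.46, adjusted p = 7.52e-05), FIP1L1 of the polyadenylation complex by 0.97 (± 0.16) and the Integrator subunit INTS5 by 0.95 (± 0.26).

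The abundant transcripts of translation and respiration were higher as whole lists relative to other genes. All 79 cytosolic ribosomal protein genes were called higher, at a median of 0.73, which was 0.25 under total-count scaling and turned to -0.078 under spike-in scaling. Of all genes tested 13.2% were called higher, and of the fifth with the highest mean level 48.3%. RPL34 was at 1411, 1572, 1452 and 1393 CPM with vehicle and 2531, 2698, 2586 and 2441 CPM with KB-0742 (0.82 ± 0.075), and RPL37 and RPL22 changed by 0.85 ± 0.087 and 0.83 ± 0.094. All 13 mitochondrially encoded mRNAs, which are made by a different polymerase in the organelle, were also called higher (median 0.80, spike-in scaling -0.0066). MT-ND2 was at 2079, 2329, 2481 and 2235 CPM with vehicle and 3997, 4295, 4054 and 4130.1 CPM with KB-0742 (0.85 ± 0.087). Of 73 nuclear genes for respiratory chain subunits 65 were called higher and none lower, and their median of 0.59 turned to -0.21 under spike-in scaling. COX7C and UQCRQ, subunits of complexes IV and III, changed by 0.82 ± 0.081 and 0.75 ± 0.086. Under spike-in scaling edgeR called no member of these 3 lists in either direction, and none had an unadjusted p under 0.05.

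Nuclear genes for making those same organelle complexes moved both ways. Of 24 cytochrome c oxidase assembly genes 7 were called higher and 6 lower (29.2% and 25%). Of 77 mitochondrial ribosomal protein genes 22 were higher and 13 lower (28.6% and 16.9%, against 13.2% and 12.9% of all genes tested). The medians of the 2 lists were 0.12 and 0.066 (spike-in scaling -0.69 and -0.72). MRPL46 was at 52.9, 56.4, 50.7 and 51.04 CPM with vehicle and 13.9, 14.5, 13.2 and 13.8 CPM with KB-0742. It had little spread within either group and fell by 1.93 (± 0.25, adjusted p = 2.29e-08). TMEM177 and SCO2, which help to build the COX2 subunit, fell by 1.89 (± 0.29) and 1.45 (± 0.26).

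Of the 31 proteasome subunits tested 19 were called higher and 1 lower, with a median of 0.36 that turned to -0.44 under spike-in and -0.12 under total-count scaling. These are 61.3% and 3.23%, against 13.2% and 12.9% of all genes tested. The list had a median of 218 CPM with vehicle. In the fifth of genes with the highest mean level, 48.3% were called higher and 8.19% lower, at a median of 0.34. For 5 of the called subunits the call was lost in at least 1 leave-out. The lower subunit was PSMB5, the chymotrypsin-like catalytic subunit, at 209, 223, 233 and 209 CPM with vehicle and 122, 126, 118 and 111 CPM with KB-0742. Its groups did not overlap (-0.87 ± 0.11, adjusted p = 2.92e-08), while PSMA7 of the same core particle changed by 0.61 ± 0.072 (-0.20 under spike-in scaling).

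Cell-cycle and repair lists had shares called higher near or under the 13.2% of all genes tested, and shares called lower above the 12.9%. Of 48 DNA replication genes 8 were called higher and 11 lower (16.7% and 22.9%), of 39 G2/M genes 5 higher and 9 lower (12.8% and 23.1%), and of 31 homologous recombination and Fanconi genes none higher and 6 lower by edgeR and by DESeq2 (unadjusted none and 7). ORC6, a subunit of the origin recognition complex, was at 57.2, 52.5, 65.5 and 57.9 CPM with vehicle and 20.6, 25.3, 23.1 and 18.4 CPM with KB-0742, and RFC4, which loads the sliding clamp, at 66.5, 86.01, 76.1 and 66.2 and 28.6, 35.5, 34.02 and 31.8 CPM. Neither gene's groups overlapped (-1.41 ± 0.19 and -1.18 ± 0.17). SLBP, which binds the stem loop of histone mRNAs, fell by 1.57 (± 0.24), and of 48 replication-dependent histone genes 12 were called higher and none lower, at a median of 0.57 under TMM and -0.24 under spike-in scaling. 8 of those 12 histone calls did not survive leaving out 1 library, and reads of near-identical histone genes can be split between them.

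Among mitotic genes NDC80, a kinetochore component, fell by 1.71 (± 0.32), and WEE1, the kinase that restrains CDK1, was higher. WEE1 was at 5.59, 7.74, 4.92 and 6.23 CPM with vehicle and 17.1, 17.4, 10.6 and 12.2 CPM with KB-0742, without overlap (1.22 ± 0.32, adjusted p = 0.00268). The repair gene XRCC3 fell by 1.39 (± 0.26).

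Noncoding RNAs were called in both directions. KCNQ1OT1, a long antisense RNA of an imprinted region, was at 15.2, 10.5, 9.32 and 9.2 CPM with vehicle and 0.794, 0.724, 0 and 0 CPM with KB-0742, from 162 counts in all to 4. It fell by 4.74 (± 0.70, adjusted p = 4.74e-07). RPPH1, the RNA of ribonuclease P, which RNA polymerase III makes, was at 0, 0.553, 0.518 and 0 CPM with vehicle and 4.76, 3.62, 4.29 and 7.27 CPM with KB-0742. It was called higher at 3.97 ± 0.72, and also under spike-in scaling (3.43), the only member of the 37 lists for which that held. MALAT1 changed by 0.54 ± 0.15 (-0.22 under spike-in scaling). Of 22 noncoding hosts of small nucleolar RNAs 10 were called higher and 1 lower, with a median of 0.36 under TMM that turned to -0.44 under spike-in and -0.12 under total-count scaling, ZFAS1 (0.72 ± 0.098) and SNHG17 (0.66 ± 0.14) among the higher. The called shares of these hosts were 45.5% and 4.55%, against 13.2% and 12.9% of all genes tested. Of 11 small nucleolar RNA entries tested 4 were called higher and none lower, at a median of 1.86 under TMM and 1.08 under spike-in scaling, from levels of at most 3.10 CPM with vehicle. The filter on low counts ran over all 9 groups. Entries this low with vehicle, RPPH1 among them, may have passed it only through treated groups, which favors values above 0. SMART-seq2 primes on poly(A) tails, which most such short RNAs lack.

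Genes often used as references were not level either. Of 18 such genes 13 were called higher and 2 lower under TMM (72.2% and 11.1%, median 0.63, -0.17 under spike-in scaling). TBP, the TATA-binding protein gene, was at 62.8, 67.8, 60.6 and 70.03 CPM with vehicle and 33.7, 25.7, 25.1 and 26.4 CPM with KB-0742. Its groups did not overlap and it fell by 1.24 (± 0.14), while YWHAZ (0.89 ± 0.091) and EEF1A1 (0.75 ± 0.073) were higher under TMM, with 0.086 and -0.06 under spike-in scaling. Among 31 T-cell surface and receptor signaling genes 10 were called higher and 3 lower (32.3% and 9.68%). Among 20 T-leukemia transcription factors 2 and 2 were called (10% and 10%), under the 13.2% and 12.9% of all genes tested. CD3D, a subunit of the T-cell receptor complex, and the receptor constant gene TRBC2 were higher under TMM (0.61 ± 0.09 and 0.60 ± 0.068), at -0.20 and -0.21 under spike-in scaling. The adhesion gene CD2 was called lower (-0.87 ± 0.30) and lost the call in 3 of the 8 leave-outs (highest adjusted p = 0.118, without vehicle replicate 2), and GIMAP2, a small GTPase gene of lymphocytes, fell by 2.03 (± 0.36).

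**Figure D4:**
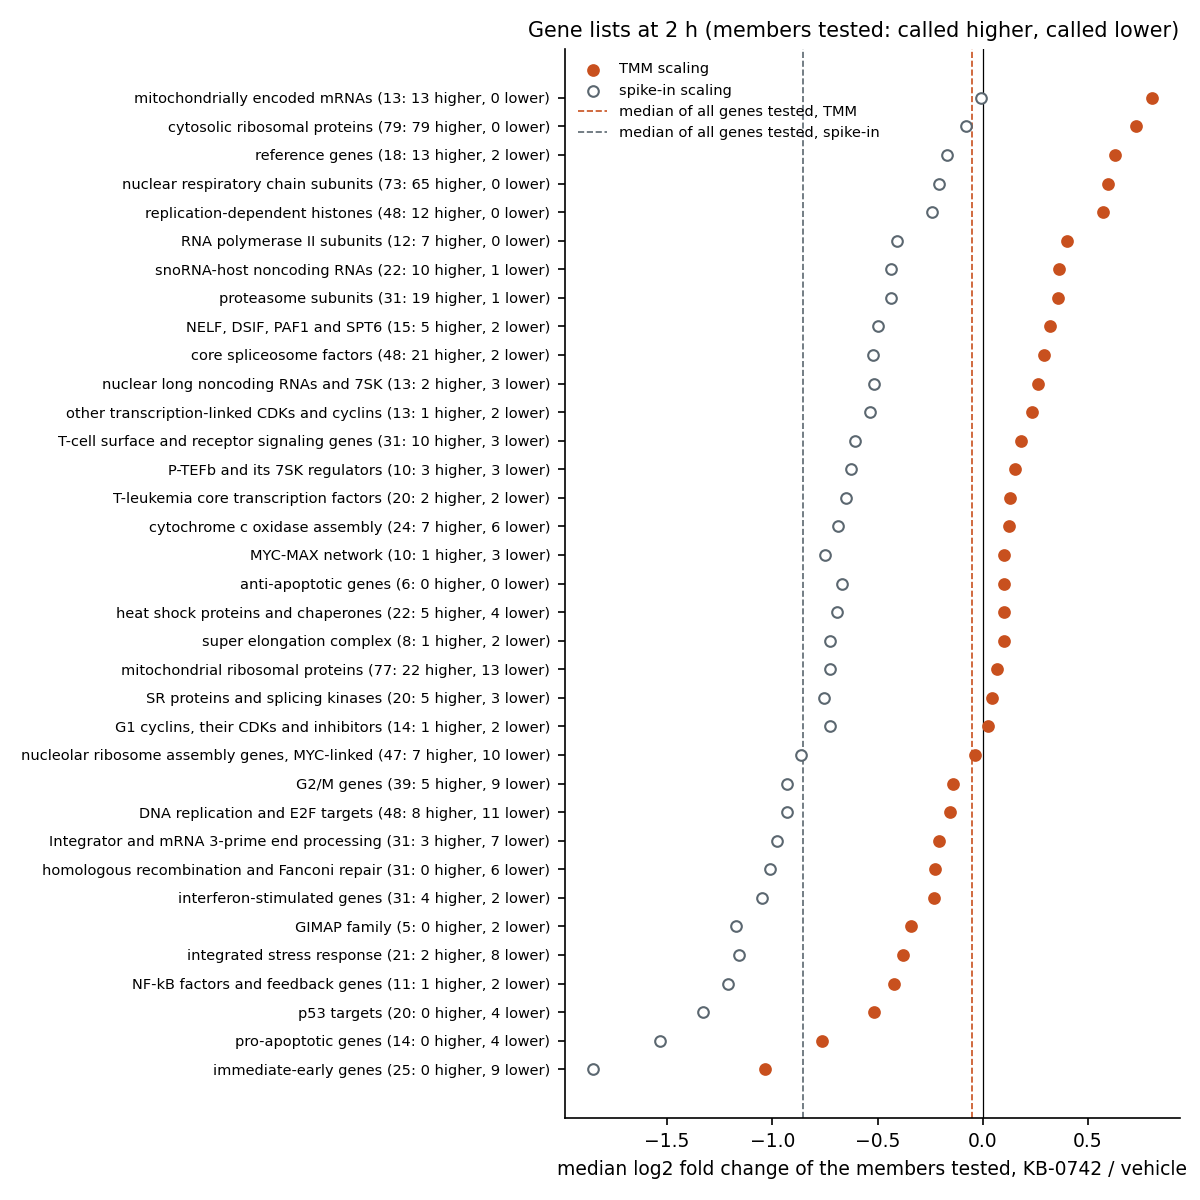
Median log2 fold change at 2 h of the members tested in each gene list with at least 5 tested, under TMM scaling (filled) and spike-in scaling (open), with the medians of all genes tested as dashed lines and the numbers called higher and lower beside each name. Mitochondrial mRNAs (0.80) and cytosolic ribosomal proteins (0.73) are at the top under TMM and at -0.01 and -0.08 under spike-in scaling, and immediate-early genes (-1.03 and -1.85) are at the bottom of both.

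The genes with the largest changes were chosen by a rule (called, mean log2 CPM of at least 3, no overlap between groups, a symbol), 10 at each end. At the lower end the readthrough transcript ANKHD1-EIF4EBP3 (chr5:140401908-140549569, GRCh38) was at 21.8, 24.1, 26.7 and 18.4 CPM with vehicle and had no count in any KB-0742 library. With 3 counts over the group as the floor, it was at least 83.2-fold lower. Its exons are shared with ANKHD1, which was at 0.92 ± 0.35 (adjusted p = 0.0549), and with EIF4EBP3, so the assignment of reads between the 3 entries is uncertain. DYNLT1 (chr6:158636474-158644739), a dynein light chain gene, was at 21.8, 23.2, 24.6 and 18.4 CPM with vehicle and 1.59, 1.81, 1.98 and 1.53 CPM with KB-0742. Both groups were tight, and DYNLT1 fell by 3.63 (± 0.37, adjusted p = 7.25e-11). The pseudogene ZNF767P fell by 3.78 (± 0.40) and HDHD3, of the haloacid dehalogenase-like family, fell by 3.58 (± 0.69). ADPRS (chr1:36088875-36093932), an ADP-ribose hydrolase gene, was the most abundant of these genes, at 68.9, 65.8, 70.4 and 64.99 CPM with vehicle and 12.3, 11.2, 7.6 and 9.57 CPM with KB-0742. It fell by 2.73 (± 0.27), and the other 5 were FAM118A, the transcription cofactor gene SERTAD1, the mannosyltransferase gene ALG2, C17orf80 and RASSF7, which fell by 2.67 to 2.76. All 10 were also called lower under spike-in scaling.

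At the upper end, most entries were noncoding or overlapped another gene, and the libraries carry no strand, so their reads cannot be told apart from those of an overlapping partner. RPL30-AS1 was at 2.66, 4.15, 3.36 and 2.37 CPM with vehicle and 20.2, 18.1, 19.8 and 16.5 CPM with KB-0742 (2.55 ± 0.35), and it kept its call under spike-in scaling (1.80). It lies wholly over RPL30 on the opposite strand, and RPL30, named here after its values were seen, went from 1708 to 2853 CPM (0.74). PRC1-AS1 (chr15:90966345-90988624) was at 3.99, 1.11, 5.18 and 2.08 CPM with vehicle and 14.3, 15.9, 14.2 and 14.2 CPM with KB-0742 (2.22 ± 0.37). It lies over PRC1, a gene of the mitotic spindle midzone, on the opposite strand, and PRC1 moved the other way, from 37.2 to 18.7 CPM (-0.998 ± 0.20).

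ZBED6 (chr1:203795714-203854999), a transposon-derived gene, lies within its host ZC3H11A on the same strand. ZBED6 was at 14.9, 26.8, 12.4 and 24.04 CPM with vehicle and 48.4, 56.5, 46.9 and 57.8 CPM with KB-0742 (1.43 ± 0.22). The host entry went the other way, from 5.43 to 1.02 CPM (-2.37 ± 0.78, a gene named after its values were seen, and a call lost in 4 of the 8 leave-outs, highest adjusted p = 0.0767 without KB-0742 replicate 3). The ZBED6 and ZC3H11A entries overlap over 59286 bases, with starts 60 bases apart. The assignment of reads between them is therefore uncertain, and whether gene and host truly moved apart was not tested. TSPAN31 rose by 1.80 ± 0.30 and overlaps CDK4, which was at 0.066 ± 0.14. ARHGAP32 was higher at 1.72 ± 0.37, and the pseudogenes BMS1P20, RPL21P28, PA2G4P6 and YWHAZP3 were higher by 1.29 to 1.74, of which PA2G4P6 lost its call in 2 of the 8 leave-outs (highest adjusted p = 0.0647, without vehicle replicate 3). Under spike-in scaling the 10 upper genes all kept a positive value, and RPL30-AS1 alone of them kept its call.

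The direction of change differed by level and between some gene classes. Genes were put in 5 equal bins by their mean level over the 35 MOLT4 libraries. Treated libraries are included, so this level holds part of the change itself. In the highest bin 48.3% were called higher and 8.19% lower, with a median of 0.34 under TMM that turned to -0.47 under spike-in scaling. In the lowest bin 2.44% were called higher and 6.56% lower, at a median of -0.29, where low counts also limit the calls. Spearman's rank correlation across the 11664 genes between fold change and level was 0.28 and between fold change and gene length, over 11316 genes, -0.09, as a description over genes that share the same 8 libraries. Genes with 1 exon had a median of 0.47 and processed pseudogenes, 281 in all, a median of 0.66 with 18.5% called higher (-0.30 and -0.12 under spike-in scaling), and reads of such copies can come from their parent genes. Both classes were low with vehicle (medians of 2.88 and 2.62 CPM), and members could pass the filter on low counts through treated groups. The classes with more exons had medians of -0.15 to -0.0076. Zinc finger genes named ZNF were at a median of -0.45 (-1.24 under spike-in scaling), with 8 of 351 called higher and 72 lower (20.5%).

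Short promoter elements were counted in the genes called in each direction. TATAAA was in 7.24% of 1132 called higher genes and 4.59% of 1198 called lower genes with a window. CCAAT was in 39.6% and 41.4%, GGGCGG in 69.4% and 70.3%, CACGTG in 11.4% and 10.4%, and TGACGTCA in 3.09% and 3.59%. Among the 100 called genes with a window that had the highest fold changes and the 100 with the lowest, TATAAA was in 11% and 6%, CCAAT in 47% and 49%, GGGCGG in 67% and 75%, CACGTG in 16% and 7%, and TGACGTCA in 6% and 4%. Each motif was searched on both strands. These shares are descriptions of letters in a 300-base window, not of factor binding.

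The change at 2 h was set beside those at 4 and 8 h, each against vehicle of its own time (3 vehicle libraries at 4 h, 4 in every other group). At 4 h 4173 genes were called (35.8%), 2108 higher (18.1%) and 2065 lower (17.7%), and at 8 h 5741 (49.2%), 2735 higher (23.4%) and 3006 lower (25.8%). Of the 1535 genes higher at 2 h, 1242 were called higher and 0 lower at 4 h, which is 80.9% of the 2 h list and 58.9% of the 4 h list. At 8 h 875 of them were higher and 206 lower. Of the 1506 genes lower at 2 h, 913 were lower at 4 h (60.6% of the 2 h list and 44.2% of the 4 h list) and 13 higher. At 8 h 576 of them were lower and 241 higher. These counts are under TMM, where the median over all genes was -0.043 at 4 h and -0.10 at 8 h, against -1.38 and -1.41 under spike-in scaling. The difference between times was itself tested. It was called for 367 genes between 2 and 4 h (3.15%, of which 1.58% toward higher at 4 h and 1.57% toward lower) and for 3785 between 2 and 8 h (32.5%, 15.9% and 16.6%). 1 KB-0742 library at 4 h stood apart with 49.4% spike-in reads, and without it 326 genes were called between 2 and 4 h. Leaving out a vehicle library at 4 h lowered that number to 174, 213 or 220 (without replicate 3, 1 or 4), and under spike-in scaling none was called by edgeR, with 731 at an unadjusted p under 0.05, while DESeq2 called 709 under its own size factors.

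HEXIM1 stayed low at the later times (-2.80 at 4 h and -1.999 at 8 h). UNC50 (-2.24, -3.97 and -2.86 at 2, 4 and 8 h), MRNIP (-2.22, -4.51 and -2.82), EFNA4 (-2.34, -4.47 and -2.26), HDHD3 (-3.58, -5.38 and -2.14) and the antisense RNA HHIP-AS1 (-2.27, -2.23 and -2.57) were called lower at all 3 times. UNC50 encodes a membrane protein, and MRNIP is a gene of double-strand break repair and EFNA4 an ephrin ligand gene. PRC1-AS1 was higher at all 3 (2.22, 2.47 and 2.37), as was CCNL2 (1.10, 2.04 and 2.30). CCNL1, not called at 2 h, was at 1.83 and 2.92 at 4 and 8 h, and both differences from 2 h were called (1.61 ± 0.26 and 2.70 ± 0.24). Under spike-in scaling CCNL1 was at -0.59, 0.50 and 1.54, and CCNL2 at 0.31, 0.64 and 0.96.

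Other genes changed course under TMM. MYC was higher at 2 h (0.91) and 4 h (1.02) but not at 8 h (-0.036), a difference between 2 and 8 h of -0.94 ± 0.20 (adjusted p = 0.000178). Under spike-in scaling MYC was at 0.10, -0.28 and -1.33 at the 3 times. Of genes lower at 2 h, NXT1, an mRNA export factor gene, was higher at 4 and 8 h (-0.55, 1.02 and 1.30), and TFIP11, a splicing disassembly factor gene, likewise (-0.82, 0.99 and 1.66). Under spike-in scaling NXT1 was at -1.35, -0.27 and -0.043, and TFIP11 at -1.59, -0.35 and 0.32, so the later values of NXT1 and the 4 h value of TFIP11 stayed below 0 there. The ribosome biogenesis kinase gene RIOK2 (-1.29, 0.54 and 1.86), the dolichol pathway gene DOLPP1 (-1.94, -0.31 and 1.10) and the circadian repressor gene NR1D1 (-1.15, 0.49 and 1.02) were lower at 2 h, not called at 4 h and higher at 8 h, where spike-in scaling gave 0.54, -0.20 and -0.29. UBE2V1, a ubiquitin-conjugating partner gene (0.65, -0.11 and -0.71), and the glutathione synthetase gene GSS (0.52, -0.086 and -0.94) went the opposite way under TMM, while under spike-in scaling UBE2V1 was at -0.14, -1.40 and -2.02 and GSS at -0.32, -1.35 and -2.26. Ribosomal protein genes had medians of 0.73, 1.000 and 1.06 under TMM, which turned to -0.078, -0.29 and -0.27 under spike-in scaling. The median of ZNF genes went from -0.45 at 2 h to -0.10 at 4 h and 0.48 at 8 h under TMM, and from -1.24 to -1.44 and -0.84 under spike-in scaling.

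**Figure D5:**
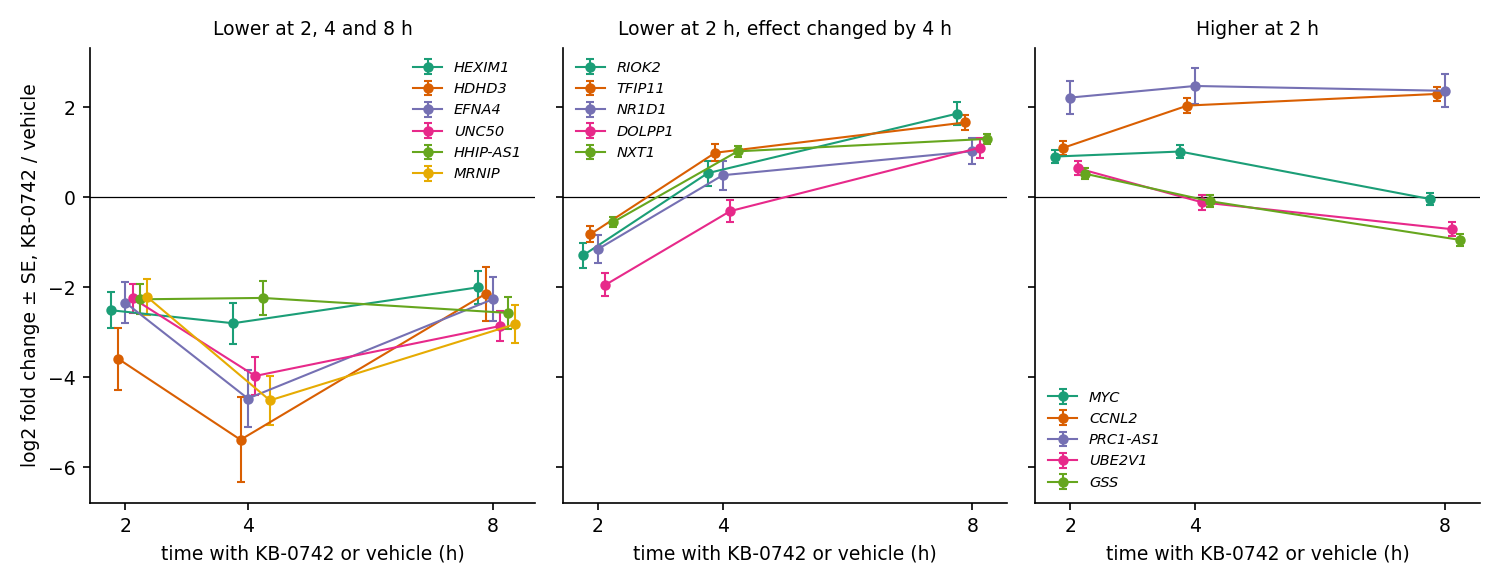
Log2 fold change ± SE of KB-0742 against vehicle of the same time at 2, 4 and 8 h under TMM scaling, for genes lower at all 3 times, genes lower at 2 h whose effect had changed by 4 h, and genes higher at 2 h (points offset sideways for legibility). HEXIM1 stays between -1.999 and -2.80, NXT1 and TFIP11 pass from below 0 to above it by 4 h under TMM but are below 0 at 4 h under spike-in scaling, and MYC is at -0.04 at 8 h under TMM and -1.33 under spike-in scaling. UBE2V1 and GSS, higher at 2 h under TMM, are below 0 at 2 h under spike-in scaling.

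The degrader KI-CDK9d-32 was measured at 2 h in the same line against the same 4 vehicle libraries. The labels give no doses, so this sets 2 samples of treated cells side by side and not 2 compounds at matched exposure. KI-CDK9d-32 changed 1163 genes against vehicle (9.97%), 532 higher (4.56%) and 631 lower (5.41%). Tested directly against each other, the 4 KB-0742 and 4 KI-CDK9d-32 libraries differed in 2138 genes (18.3%), 1181 higher with KB-0742 (10.1%) and 957 lower (8.2%). The median over all genes was 0.0086 under TMM and -0.39 under spike-in scaling, and the split was 89 higher and 396 lower under spike-in scaling and 379 and 1816 under total-count scaling.

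The largest contrast among the regulators named was MYC. Its change from vehicle was 0.91 for the inhibitor and -1.99 for the degrader, and the direct difference was 2.89 ± 0.15 (edgeR adjusted p = 1.18e-19). HEXIM1 went the other way, at -2.51 for the inhibitor and -0.30 (not called) for the degrader, a difference of -2.21 ± 0.41 (adjusted p = 7.39e-05). IRF1 (0.51 and -1.45) and DDIT3 (-0.91 and -3.50) were higher with KB-0742 than with KI-CDK9d-32, by 1.96 ± 0.18 and 2.59 ± 0.38. LUC7L3 (-1.39 and 0.21) and PNISR (-1.74 and 0.24) were lower with KB-0742 on direct comparison, with differences of -1.60 and -1.98. DYNLT1 and ZNF767P were also lower with KB-0742, with differences of -2.92 and -3.88. SNHG17 was called higher with KB-0742 (0.66) and lower with KI-CDK9d-32 (-1.19).

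For other genes the difference between the compounds did not pass the test. MEPCE was at -1.85 and -1.72 (difference -0.14 ± 0.42, adjusted p = 0.875) and DNAJB1 at -1.09 and -1.27 (0.18 ± 0.15, adjusted p = 0.453). PIM1 (-4.03 and -3.30) and DUSP1 (-2.65 and -4.65) fell with both, and their differences did not pass the test (-0.73 ± 0.97 and 2.001 ± 0.87), with standard errors that leave room for sizeable ones. The immediate-early list had a median of -1.03 for KB-0742 against vehicle and of -1.96 for KI-CDK9d-32 against vehicle, and on direct comparison 5 of its 25 tested members were higher with KB-0742 and none lower. Ribosomal protein genes were higher with KB-0742 than with KI-CDK9d-32 in all 79 cases under TMM (median difference 0.36), a median that was 0.084 under total-count scaling and turned to -0.052 under spike-in scaling.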

How the data were processed

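RNA of each lysate was made into SMART-seq2 and Nextera XT libraries, without strand information or molecular identifiers, after an equal amount of spike-in RNA had been added, per the labels' protocols. The submitters' processing notes name Salmon and hg38, and versions and annotation release are not given in the sources used here. The authors deposited expected counts per gene, which hold whole numbers only, and log2 TPM (with 1 added to each TPM), and the tests used the counts. Of 62856 entries, 92 ERCC, 7 SIRV and 47 pseudoautosomal Y rows were kept out of testing.

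All 35 MOLT4 libraries in 9 groups were fitted in edgeR 4.0.16 (R 4.3.3) with filterByExpr (minimum count 10, 11664 genes kept, 0.437% of gene counts set aside), TMM, robust quasi-likelihood F tests and Benjamini-Hochberg adjustment at 0.05, and DESeq2 1.42.0 was an alternative. The common biological coefficient of variation was 0.21. CPM use TMM-adjusted gene totals. Standard errors are the fold change over the root of F. On simulated data of 11664 genes for this comparison, 50 genes each were changed by 1, -1, 2 and -2 (log2). Of those changed by 1 in either direction 46% were recovered, of those raised by 2 76% and of those lowered by 2 60%, with 4.2% false calls. Far fewer genes were changed there than the 26.1% called at 2 h, so these rates may not hold for the data. Count intervals and floors cover counting error only, and replicates varied at least 3.247 times as much as counting gives (chi-square per degree of freedom).

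Library measures were compared by exact permutation over 70 arrangements. Positions come from GENCODE 29 (GRCh38), promoters from RefSeq (GRCh38.p14), matched by symbol for 8552 tested genes. Named genes are 7 fixed genes, the 10 at each end of the change, up to 5 called members per list (every member of the first 4 lists) and genes that kept or changed their effect by 4 h. Not all of them are printed, and some results are not reported here. The members and the 37 gene lists were chosen with earlier results of these data known.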

Additional observations from a re-analysis of the deposited data

Results flagged for a closer look

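In 21 of 278 groups of 4 libraries checked, 1 library lay far from the other 3 (by Dixon's test at its 95% critical value), and chance flags about 1 in 20 groups. With vehicle, CDK9 was at 18.1 CPM in replicate 1 (median of the others 7.76), HEXIM2 at 8.54 CPM in replicate 3 (3.87), and CD2 at 43.7 CPM in replicate 2 (28.2). Low vehicle libraries were replicate 2 for NELFA (50.6 CPM, others 64.4), replicate 4 for MNAT1 (19.3, others 24.3) and CCNL2 (26.7, others 43.1), replicate 3 for ZFP36L1 (10.4, others 12.5), and replicate 1 for UNC50 (16.8, others 18.7) and MRNIP (9.84, others 15.1). ANKHD1 was high in vehicle replicate 4 (27.9, others 16.3). With KB-0742, high libraries were replicate 1 for TBP (33.7 CPM, others 25.7), SLC7A11 and FOS (both 0.794, others 0), replicate 2 for PRC1-AS1 (15.9, others 14.2), RGS2 (1.45, others 0) and ZFP36L1 (6.15, others 3.06), replicate 3 for UBE2V1 (129, others 104), FOSB (0.991, others 0) and ANKHD1 (41.3, others 33.3), and replicate 4 for HERPUD1 (49.4, others 31.0) and IER2 (13.0131, others 6.15). No single library accounts for these, and leaving out 1 library ended the calls of HEXIM2, CD2 and MNAT1 among the called genes here.

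The effect of KB-0742 differed between times for named genes in 27 tests with edgeR's adjusted p under 0.05. From 2 to 4 h the effect rose by 1.61 for CCNL1, 0.94 for CCNL2, 1.19 for AEN, 0.94 for TBP, 1.83 for RIOK2, 1.81 for TFIP11, 1.64 for NR1D1, 1.64 for DOLPP1 and 1.58 for NXT1 (log2), and the change was -0.76 for UBE2V1 and -0.61 for GSS. From 2 to 8 h it rose by 2.70 for CCNL1, 1.20 for CCNL2, 2.35 for AEN, 2.47 for TBP, 3.54 for ZNF767P, 2.34 for ADPRS, 2.86 for LEO1, 3.15 for RIOK2, 2.48 for TFIP11, 2.17 for NR1D1, 3.05 for DOLPP1 and 1.85 for NXT1. Over the same span it changed by -0.94 for MYC, -0.72 for CD3D, -1.35 for UBE2V1 and -1.47 for GSS. TBP and LEO1, both lower at 2 h, were called higher at 8 h under TMM (1.24 and 1.05), which turned to -0.084 and -0.25 under spike-in scaling. None of the differences between 2 and 4 h was called under spike-in scaling by edgeR, where 731 genes had an unadjusted p under 0.05.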

How the results depend on the processing

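The counts of calls changed with the scaling. Spike-in scaling gave 14 higher and 2282 lower genes at 2 h, 0 genes between 2 and 4 h, 458 between 2 and 8 h and 485 between the compounds. Total-count scaling, added after seeing the data, gave 261 and 3982. For 2 against 4 h edgeR called 367 genes and DESeq2 709. RLE scaling gave 1393 higher and 1655 lower, no filter on low counts 1226 and 1434, the 8 libraries alone 1703 and 1906, and DESeq2 1502 and 1828. Leaving out 1 library gave 2607 to 2670 calls at 2 h (1348 to 1381 higher, 1246 to 1312 lower), 174 to 357 between 2 and 4 h, 3390 to 3737 between 2 and 8 h and 1638 to 1892 between the compounds, and a difference in spike-in share of 1.98 to 4.45 percentage points. Of the 3041 calls at 2 h under TMM with all libraries, 1057 were lost in at least 1 of the 8 leave-outs. The causes were not tested.

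Spike-in scaling changed the sign of the value for AFF4 (-0.13), CCNT1 (-0.063), CCNT2 (-0.012), CD3D (-0.20), EEF1A1 (-0.060), GSS (-0.32), HSP90AA1 (-0.24), IRF1 (-0.33), MALAT1 (-0.22), NELFCD (-0.49), NELFE (-0.40), POLR2F (-0.22), PSMA7 (-0.20), RPL30 (-0.065), RTF1 (-0.32), SNHG17 (-0.18), SRSF2 (-0.40), SRSF3 (-0.093), SUPT4H1 (-0.27), TCEA1 (-0.31), TRBC2 (-0.21), UBE2V1 (-0.14), UQCRQ (-0.050) and ZFAS1 (-0.071). No gene called higher under TMM was called lower under spike-in scaling. Total-count scaling changed the sign for CDK4 (-0.42), NELFCD (-0.16), NELFE (-0.083), RTF1 (-0.013), SRSF2 (-0.057) and TCEA1 (-0.0063).

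Correlations of same-numbered deviations across genes were -0.011 to 0.051, so little pairing by replicate number was seen there. The spike-in share went with replicate number in part. At 2 h replicate 4 was lowest with vehicle (12.2%), KB-0742 (14.01%) and KI-CDK9d-32 (12.1%). At 4 h replicate 3 was highest with each (21.2%, 49.4% and 39.5%). Other ranks differed, since at 2 h replicate 2 was highest with vehicle and replicate 3 with KB-0742. Shared handling of same-numbered samples was not tested. With a replicate block 3178 genes were called at 2 h (1625 higher, 1553 lower), and 476 between 2 and 4 h. Among the genes named, the block ended the call of HEXIM2 (adjusted p = 0.0527), gave a call of higher for ANKHD1 (adjusted p = 0.0491) and changed no other call. No filter on low counts ended those of CCNT2, EAF2, NELFCD, RTF1, TCEA1, MNAT1 and REL, and the 8 libraries alone ended that of CCNT2 (adjusted p = 0.078) and called ANKHD1 (adjusted p = 0.000988). At 2582359 to 3240753 gene counts per library, genes at a few CPM rest on few reads, and a change in them can go uncalled.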
